A study of Homo sapiens with 6 samples.

Results

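The APOBEC3 deaminases and ADAR are nucleic acid editing enzymes, and their transcripts were followed in SKOV3 cells, an established human ovarian cancer line. The set was defined by gene symbol as the 7 APOBEC3 genes (APOBEC3A, APOBEC3B, APOBEC3C, APOBEC3D, APOBEC3F, APOBEC3G and APOBEC3H) together with ADAR, and all 8 were found once each among the 60498 genes with estimated counts. The APOBEC3 enzymes turn cytidine into uridine in single-stranded DNA. They restrict retroviruses and retrotransposons, and APOBEC3A and APOBEC3B are also known for the mutations they leave in tumour genomes. ADAR turns adenosine into inosine in double-stranded RNA, which keeps the cell's own RNA from being read as foreign by sensors such as IFIH1 (MDA5) and EIF2AK2 (PKR). Several of these genes are known interferon-stimulated genes (ISGs), and the dinucleotide cGAMP, which binds STING1, is a trigger of interferon production.

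The 6 RNA-seq libraries came from 3 lines, each as a control and after 10 μg/mL 2'3'-cGAMP, with 1 library per line and treatment. The parental line, WT/HAQ, carries 1 wild-type STING1 allele and 1 allele of the HAQ haplotype, a set of linked coding variants. The WT/- line kept the wild-type allele alone and the HAQ/- line kept the HAQ allele alone, after an allele was cut out with a pair of guide RNAs delivered in lentiCRISPRv2, with puromycin selection and limiting dilution. Each edited line is 1 clone, so haplotype and clone cannot be told apart. According to the methods, cGAMP was given for 30 min in a digitonin permeabilization buffer and cells rested for 4 h, and how control cells were handled was not given in the sources used here, so the effect of cGAMP and that of permeabilization cannot be told apart if control cells were left without the buffer.

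Libraries held 12444822 to 17608467 estimated counts, fewest in the WT/- library with cGAMP. STING1, the edited gene, had normalized counts of 669 in WT/HAQ cells, 353 in WT/- and 213 in HAQ/- controls, and 1780, 553 and 403 with cGAMP. These gene-level counts do not tell the alleles apart. All 8 epithelial markers checked were detected in every library, with ERBB2, which SKOV3 cells are known to overexpress, at 46460 to 69250 normalized counts. The 9 markers of blood cells, fibroblasts and endothelium summed to 1162 and 1349 normalized counts in the WT/HAQ control and cGAMP libraries, 1776 and 1965 in WT/- and 1808 and 1814 in HAQ/-. The epithelial list summed to 113100 and 93100, 88290 and 72840, and 92080 and 87660 in the same order, lower with cGAMP in 3 of 3 lines. Among the 8 epithelial markers, edgeR's treatment test with line as a block called 0 in either direction. Before adjustment, at p under 0.05, it gave 0 higher and 3 lower (11.6% and 13.6% of all tested genes), and DESeq2 called 0 higher and 2 lower (5.1% and 3.85%). PAX8 had log2 folds of -1.78, -0.92 and -0.49 in WT/HAQ, WT/- and HAQ/- (adjusted p 0.0821 in edgeR's treatment test). KRT7 went from 11670 to 5827, from 7879 to 4973 and from 3590 to 2788 normalized counts (adjusted p 0.0644). CDH1 and EPCAM went the other way, with tested log2 changes of 0.32 and 0.10, and were higher in 2 and 3 of 3 lines. The changes of KRT8, KRT18, KRT19 and ERBB2 were -0.17, -0.37, -0.32 and -0.09. The blood markers PTPRC, CD3E and LYZ reached at most 2.85, whereas the collagen genes COL1A1 and COL1A2 and the proteoglycan gene DCN, markers of fibroblasts, were at 792 to 1121, 194 to 637 and 152 to 269, where the epithelial markers CDH1 and EPCAM were at 210 to 337 and 421 to 772, so that COL1A1 lay above both. Some markers also differed between lines in edgeR's quasi-likelihood test with treatment as a block. COL1A2 was 2.67-fold higher in WT/- and 3.18-fold higher in HAQ/- than in WT/HAQ (adjusted p 0.00544 and 0.00966), and the keratin gene KRT19 was 12.4-fold and 12.1-fold lower (adjusted p 0.00258 and 0.0089). No gene of the whole table passed in these contrasts when either WT/- library was left out. The part of these marker differences in the differences of APOBEC3 genes and ADAR, with cGAMP or between lines, was not tested.

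The APOBEC3 genes lie head to tail on the forward strand of chromosome 22 (GRCh38, GENCODE release 44), from the start of APOBEC3A at 38952741 to the end of APOBEC3H at 39104067. ADAR lies alone on the reverse strand of chromosome 1, from 154581695 to 154628013, with 33 annotated transcripts. The APOBEC3 genes arose by duplication, and a read can match more than one of them. Of all windows of 150 bases in the annotated transcripts, 4.14% in APOBEC3A also occurred in another gene, as did 5.72% in APOBEC3B, 3.75% in APOBEC3F and 2.15% in APOBEC3G, while APOBEC3C, APOBEC3H and ADAR shared none. APOBEC3D shared 78.2% of its windows, nearly all with the readthrough gene ENSG00000284554, which was not analysed here. Among the 48 deposited values for the 8 genes, 4 were not whole numbers. These were 25.36 for APOBEC3A beside 73.64 for APOBEC3B in the WT/HAQ library with cGAMP, and 28.73 for APOBEC3F beside 7.27 for APOBEC3G in the WT/HAQ control, so in each pair a share of the reads had been divided between paralogs. Low values of single APOBEC3 genes are uncertain to that extent, and sums over the pairs are given where they matter.

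Most APOBEC3 transcripts were scarce and ADAR was abundant. Levels were put on a scale of counts per kilobase of exon and per 1000000 effective counts, which depends on the annotated exon length. ADAR ranged from 17.5 in the WT/HAQ control to 43.6 in WT/- with cGAMP. That placed it above 84.3% to 94.1% of the 14995 tested genes whose exon length was known. APOBEC3B was the most abundant APOBEC3 gene per length in all 6 libraries, at 1.51 to 3.13, and lay above 29.4% to 44.2% of those genes. Lengths joined the exons of all annotated transcripts, giving 1896 bases for APOBEC3B and 5375 for APOBEC3G, and the ranking depends on them. In WT/- with cGAMP, APOBEC3G had more normalized counts than APOBEC3B, 64.1 against 50.8. APOBEC3C reached at most 1.06, APOBEC3A 0.81, APOBEC3G 0.76 and APOBEC3F 0.76. APOBEC3D and APOBEC3H were at or near 0.

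**Figure D1:**
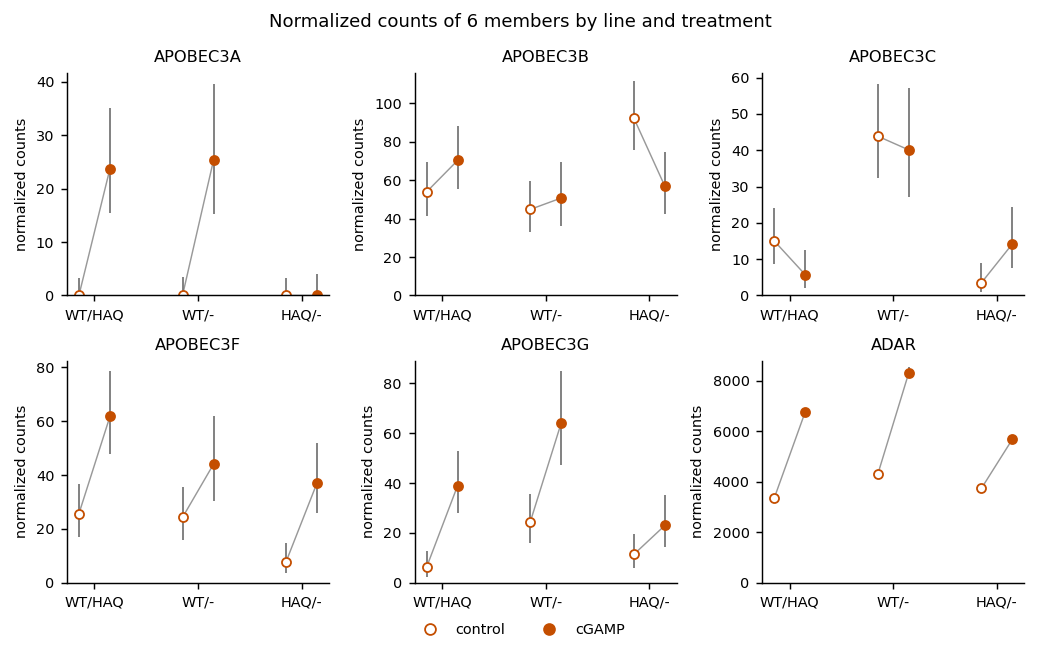
Normalized counts (vertical axes, linear, from 0) of 6 of the 8 genes in the control (open) and cGAMP (filled) library of each line (horizontal axis). Bars are 95% counting intervals of each library and lines join the libraries of a line. APOBEC3A stayed at 0 in both HAQ/- libraries. The 3 ADAR values ran from 5687 to 8322 with cGAMP and from 3345 to 4297 in the controls.

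With 1 library per condition, the response of a single line has no replicate check. A gene was therefore called past the fold when its normalized counts differed at least 1.5-fold between the 2 libraries of a line, and 95% intervals cover counting error only. Of the 8 genes, 5 (APOBEC3B, APOBEC3C, APOBEC3F, APOBEC3G and ADAR) reached a mean count of 10, the minimum for the tests across genes, while APOBEC3A, APOBEC3D and APOBEC3H did not. In WT/HAQ, 3 of the 5 were past the fold upwards, where 12.8% of all 15126 tested genes were, and 1 downwards (12.3% of all). In WT/- the counts were 3 upwards (11.9%) and 0 downwards (8.77%), and in HAQ/- 4 upwards (6.75%) and 1 downwards (5.76%). APOBEC3F, APOBEC3G and ADAR were past the fold upwards in all 3 lines, as were 3.11% of tested genes. The median log2 fold of the 5 genes was 1.02 in WT/HAQ cells, 0.86 in WT/- and 1.02 in HAQ/-, and that of all tested genes was -0.01, -9.96e-05 and -0.01.

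For an average over lines, edgeR's quasi-likelihood test was fitted with line as a block, so that the 3 lines stood in as replicates of the treatment. These p-values rest on how far the response differed between lines, which carry different STING1 alleles. That spread has 2 residual degrees of freedom, and edgeR moderates it with the spread of all tested genes. ADAR alone of the 5 genes passed, upwards, where 2.27% of tested genes did, and 0 passed downwards (0.959% of all). At an unadjusted p under 0.05, edgeR gave 3 genes upwards (ADAR, APOBEC3F and APOBEC3G) and 0 downwards, where it gave 11.6% and 13.6% of all tested genes. After adjustment, DESeq2 called 2 upwards (ADAR and APOBEC3G) and 0 downwards, where it called 5.1% and 3.85% of all.

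**Figure D2:**
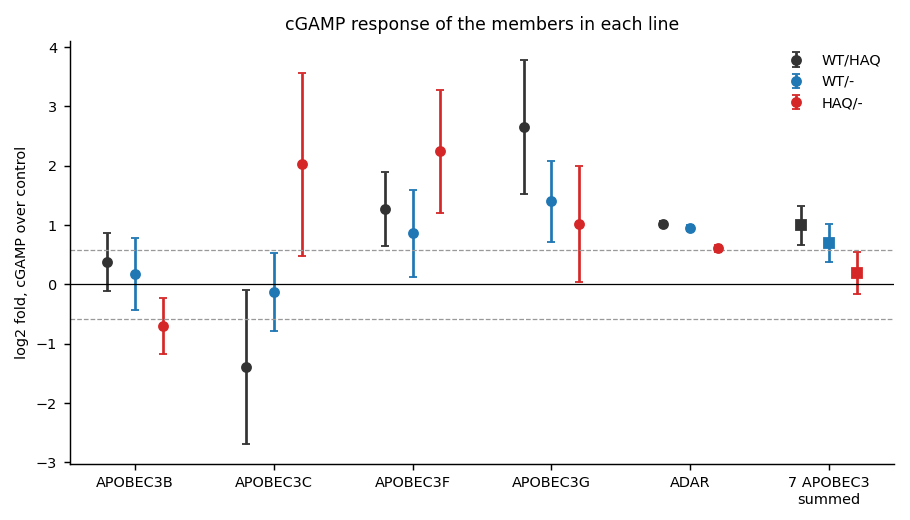
Log2 fold, cGAMP over control, in each line for the 5 tested genes and the sum of the 7 APOBEC3 genes (squares). Bars are 95% counting intervals and dashed lines mark 1.5-fold either way; APOBEC3F, APOBEC3G and ADAR lay above the upper line in every line, whereas APOBEC3B and APOBEC3C lay on different sides of 0 in WT/HAQ and HAQ/-.

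ADAR rose with cGAMP. Its normalized counts went from 3345 to 6768 in WT/HAQ cells, from 4297 to 8322 in WT/- and from 3736 to 5687 in HAQ/-. All 3 treated libraries exceeded all 3 controls, and the share of all tested genes that did so is not given here. The fold was 2.02 (1.95 to 2.10) in WT/HAQ cells, 1.94 (1.86 to 2.01) in WT/- and 1.52 (1.46 to 1.58) in HAQ/-. Its tested log2 change was 0.86 ± 0.10 (SE), with an adjusted p of 0.0233 from edgeR's quasi-likelihood test, in 3 of 3 lines. The adjusted p was 0.08 without the WT/HAQ libraries, 0.343 without the WT/- libraries and 0.139 without the line block, so the call was lost under each of these, in which 0.899%, 0% and 0.377% of all tested genes were called higher. It was kept without the HAQ/- libraries (0.000205), a fit in which 8.77% of all tested genes were called higher, and over all alternatives the adjusted p ran from 9.29e-08 to 0.343.

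The response of ADAR was smallest in HAQ/-. Its log2 fold there was 0.61, lower by 0.41 (0.33 to 0.49) than in WT/HAQ cells and by 0.35 (0.27 to 0.43) than in WT/-. Between WT/HAQ and WT/- the log2 folds were 0.06 apart, with an interval (-0.02 to 0.14) that includes 0. These intervals cover counting error only, which is small for a gene as abundant as ADAR, and the spread between cultures was not measured.

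ADAR is known to be transcribed from separate start sites, a constitutive one for the short protein p110 and an interferon-inducible one for the long protein p150. The annotated transcripts ADAR-201, coding for 931 residues, and ADAR-202, coding for 1226 residues, start 19782 bp apart. The 30 bases just before each start on the reverse strand of chromosome 1 (GRCh38) are shown because they differ in an interferon-stimulated response element, with matches to its core GAAANNGAAA in capitals.
ADAR-201, chr1:154627969-154627998: atgatgtcaccaatctgcgaccagaccatt
ADAR-202, chr1:154608187-154608216: aaggctttccgaggaaacGAAAGCGAAAtt
Windows from 250 bases before to 50 after each start were searched on both strands. ADAR-202 held 1 match to the core, beginning 12 bases before the start, and ADAR-201 held 0. The kappaB letters GGGANNNNCC matched once, 37 bases after the start of ADAR-202 and outside the core match, and the GAS letters TTCNNNGAA matched in neither window. In RefSeq promoters of the same length (GRCh38), 3.57% of 35116 windows held the core, as did 25.6% the kappaB letters and 7.66% the GAS letters. By gene, the core was found in 20 of the 31 genes of the ISG signature described below that have a RefSeq window, and in 4.38% of all 27305 genes. The RefSeq table had entries for 2 of the 8 genes, ADAR and APOBEC3H. The 3 ADAR windows of that table, which start at other positions than the pair above, held 0 matches to the 3 motifs, and the APOBEC3H window held 1 kappaB match. The deposited counts are per gene, so p110 and p150 transcripts cannot be told apart in them.

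APOBEC3A appeared only in treated libraries with a wild-type allele. It had 0 counts in all 3 controls, 25 counts in WT/HAQ with cGAMP, 19 in WT/- with cGAMP and 0 in HAQ/- with cGAMP. In normalized counts the treated libraries stood at 23.8, 25.4 and 0. Against a floor of 3 counts per library, APOBEC3A was at least 8.96-fold higher with cGAMP in WT/HAQ cells and at least 9.06-fold higher in WT/-. Between treated libraries it was at least 7.24-fold lower in HAQ/- than in WT/HAQ cells, and at least 7.73-fold lower than in WT/-. The count of 0 in the HAQ/- library with cGAMP has a 95% upper limit of 4.04 normalized counts. A low level there was not detectable at this depth. With a mean count of 7.33, APOBEC3A was below the minimum for the tests. Fewer cells with the transcript and less of it per cell cannot be told apart in these bulk libraries.

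The interferon genes were likewise low in HAQ/- with cGAMP. IFNB1, the gene for interferon beta, had 5, 2 and 6 counts in the WT/HAQ, WT/- and HAQ/- controls and 1325, 1934 and 15 with cGAMP. IFNL1, the gene for a type III interferon, had 4, 4 and 7 counts in the controls and 1575, 1633 and 17 with cGAMP. ADAR, APOBEC3F and APOBEC3G were past the fold in HAQ/-, where IFNB1 had 15 counts, and APOBEC3A was at 0 there. IFNL1 was taken up after its values had been seen, and whether either interferon gene bears on the APOBEC3A counts was not tested.

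APOBEC3B, a nuclear deaminase known to be overexpressed in several carcinomas, did not pass the test. Its normalized counts went from 53.9 to 70.3 in WT/HAQ cells, from 44.8 to 50.8 in WT/- and from 92.5 to 56.9 in HAQ/-. The HAQ/- control was the highest of the 6 libraries. The fold was 1.31 (0.93 to 1.83) in WT/HAQ cells and 1.13 (0.74 to 1.73) in WT/-, intervals that include 1. In HAQ/- the treated library was 1.62-fold lower than its control, a log2 fold of -0.70 (-1.18 to -0.22). The log2 fold in HAQ/- lay 1.08 (0.40 to 1.77) below that in WT/HAQ cells and 0.88 (0.10 to 1.66) below that in WT/-, by counting error alone. In edgeR's quasi-likelihood test the log2 change was -0.06 with an adjusted p of 0.921, and 0.578 to 0.99 over the alternatives.

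APOBEC3A and APOBEC3B share reads, so they were also summed. The summed counts went from 61 to 99 in WT/HAQ cells, from 48 to 57 in WT/- and from 106 to 52 in HAQ/-. The fold of the sum was 1.75 (1.27 to 2.40) in WT/HAQ cells and 1.70 (1.16 to 2.49) in WT/-. In HAQ/-, where APOBEC3A had 0 counts, the sum was that of APOBEC3B alone.

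APOBEC3F and APOBEC3G, which act on retroviral DNA during reverse transcription, had higher values with cGAMP in 3 of 3 lines, where 23.7% of tested genes did, without passing the test. APOBEC3F went from 25.6 to 61.8 normalized counts in WT/HAQ cells, from 24.3 to 44.1 in WT/- and from 7.85 to 37.2 in HAQ/-. Every treated library lay above every control, and the share of all tested genes with such a separation is not given here. The fold was 2.41 (1.56 to 3.72) in WT/HAQ cells, 1.82 (1.09 to 3.02) in WT/- and 4.74 (2.31 to 9.73) in HAQ/-, which had the lowest control. The log2 change was 1.38 ± 0.33 (SE), with an adjusted p of 0.0866 from edgeR's quasi-likelihood test and 0.0596 to 0.395 over the alternatives.

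APOBEC3G went from 6.19 to 39.0 normalized counts in WT/HAQ cells, from 24.3 to 64.1 in WT/- and from 11.3 to 23.0 in HAQ/-. Here the groups overlapped, since the WT/- control was above the treated HAQ/- library. The fold was 6.30 (2.88 to 13.8) in WT/HAQ cells, 2.64 (1.65 to 4.24) in WT/- and 2.03 (1.03 to 4.00) in HAQ/-. Its log2 change was 1.63 ± 0.38 (SE), with an adjusted p of 0.0821 from edgeR's quasi-likelihood test. The adjusted p was 0.0442 with DESeq2 and 0.0197 without the HAQ/- libraries, where 8.77% of all tested genes passed upwards, and the range over all alternatives was 0.0197 to 0.406.

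The order of the lines differed between the pair. The fold of APOBEC3F was largest in HAQ/- and that of APOBEC3G in WT/HAQ. The log2 fold of APOBEC3G in HAQ/- lay 1.64 (0.11 to 3.16) below that in WT/HAQ, and the log2 fold of APOBEC3F in HAQ/- lay 0.98 above that in WT/HAQ, with an interval (-0.26 to 2.21) that includes 0. Because reads of the WT/HAQ control had been divided between these 2 genes, they were also summed, a step added after the values were seen. The sum went from 36 to 106 counts in WT/HAQ cells, from 52 to 81 in WT/- and from 22 to 55 in HAQ/-, which gave folds of 3.17 (2.17 to 4.61), 2.23 (1.58 to 3.15) and 3.14 (1.92 to 5.12).

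APOBEC3C, a single-domain member with weak activity against most retroviruses, had different directions in different lines. Its normalized counts went from 15.0 to 5.70 in WT/HAQ cells, from 43.9 to 40.1 in WT/- and from 3.49 to 14.2 in HAQ/-. WT/- was high in both libraries, and the other 4 values lay below it. The log2 fold was -1.40 (-2.70 to -0.10) in WT/HAQ cells, -0.13 (-0.79 to 0.52) in WT/- and 2.03 (0.49 to 3.57) in HAQ/-. These rest on 17 and 6 counts in WT/HAQ and on 4 and 13 in HAQ/-, and with a floor of 10 counts in place of 3 the log2 folds were -0.66 and 0.71. The averaged log2 change was 0.01, with an adjusted p of 0.991 from edgeR's quasi-likelihood test and 0.5 to 0.996 over the alternatives.

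APOBEC3D had 1 count in the WT/- control and 0 in the other 5 libraries, and APOBEC3H had 0 counts in all 6. APOBEC3H had 95% upper limits of 3.22 to 4.93 normalized counts, so it was not detectable at this depth with or without cGAMP. For APOBEC3D, 77.2% of the transcript windows also occurred in the readthrough gene ENSG00000284554, which was not analysed here. Whether APOBEC3D reads had been assigned to that gene was not tested, so the 0s of APOBEC3D do not show absence. No fold was taken for either gene.

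The 7 APOBEC3 genes were then summed, so that reads divided among these 7 are counted once. Counts of the sum went from 114 to 211 in WT/HAQ cells, from 148 to 168 in WT/- and from 132 to 120 in HAQ/-. In normalized counts these were 101 and 201, 138 and 224, and 115 and 131. The fold was 1.99 (1.59 to 2.50) in WT/HAQ cells, 1.62 (1.30 to 2.02) in WT/- and 1.14 (0.89 to 1.46) in HAQ/-, an interval that includes 1. APOBEC3B had a smaller share of the sum with cGAMP in each line. It made up 53.5% of APOBEC3 normalized counts in the WT/HAQ control and 35.1% with cGAMP, 32.4% and 22.6% in WT/-, and 80.3% and 43.3% in HAQ/-. APOBEC3A took 11.8% of the treated WT/HAQ library and 11.3% of the treated WT/- library. ADAR exceeded the 7 genes together by 31.1 to 43.3 times in normalized counts, a scale that does not correct for length.

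**Figure D3:**
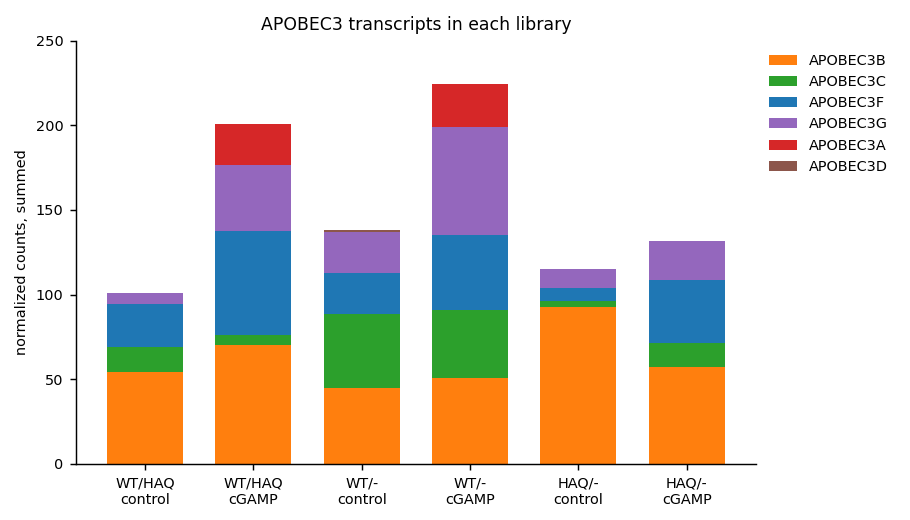
Normalized counts of the APOBEC3 genes stacked by gene (vertical axis, from 0) in each of the 6 libraries. The stack reached 201 in WT/HAQ cells and 224 in WT/- with cGAMP, against 131 in HAQ/- with cGAMP, and APOBEC3B (bottom) held 80.3% of the HAQ/- control.

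Without cGAMP, the control libraries of the 3 lines differed in their APOBEC3 counts, with 1 library per line and counting error only. The ratio between control libraries was past 1.5-fold for 2 of the 5 genes, both higher, in WT/- against WT/HAQ (13% of all tested genes higher, 9.87% lower). APOBEC3C was 2.92-fold (1.69 to 5.05) and APOBEC3G 3.92-fold (1.74 to 8.83) higher in WT/-. In HAQ/- against WT/HAQ, APOBEC3B was 1.72-fold (1.25 to 2.35) higher and APOBEC3G 1.83-fold (0.75 to 4.46) higher, an interval that includes 1, where 7.37% of tested genes were past the fold upwards. APOBEC3C was 4.31-fold and APOBEC3F 3.27-fold lower in HAQ/-, where 8.59% were past it downwards. Between the edited clones, APOBEC3B was 2.06-fold (1.47 to 2.90) higher in HAQ/- than in WT/-, and APOBEC3C 12.6-fold, APOBEC3F 3.09-fold and APOBEC3G 2.14-fold lower (11.6% of tested genes higher, 15.3% lower). ADAR stayed within 1.5-fold between all controls, being 1.28-fold (1.23 to 1.34) higher in WT/- and 1.12-fold (1.07 to 1.17) higher in HAQ/- than in WT/HAQ.

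In the treated libraries, 2 of the 5 genes were past 1.5-fold, both higher, in WT/- against WT/HAQ (14.6% of tested genes higher, 9.89% lower). APOBEC3C was 7.03-fold (3.0 to 16.4) and APOBEC3G 1.65-fold (1.09 to 2.49) higher in WT/-. In HAQ/- against WT/HAQ, APOBEC3C was 2.50-fold (0.98 to 6.34) higher, an interval that includes 1, and APOBEC3F was 1.66-fold and APOBEC3G 1.70-fold lower (9.87% higher, 13.3% lower). In HAQ/- against WT/-, APOBEC3C was 2.82-fold and APOBEC3G 2.79-fold lower and 0 genes were past the fold upwards (12.4% higher, 19% lower). ADAR again stayed within 1.5-fold, its treated level in WT/- being 1.46-fold (1.41 to 1.52) and that in WT/HAQ 1.19-fold above that in HAQ/-. APOBEC3B had similar values in the 3 treated libraries, with ratios of 1.12 (0.74 to 1.70) for HAQ/- over WT/-, 0.81 (0.57 to 1.15) for HAQ/- over WT/HAQ and 0.72 (0.49 to 1.06) for WT/- over WT/HAQ.

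Averaged over treatment, 0 of the 5 genes passed in any pair of lines in edgeR's quasi-likelihood test with treatment as a block, and 0 with DESeq2. Of all tested genes, edgeR called 4.99% higher and 3.81% lower in WT/- than in WT/HAQ, 0.377% and 0.846% in HAQ/- against WT/HAQ, and 7.94% and 11.1% in HAQ/- against WT/-. DESeq2 called 5.26% and 3.44%, 1.19% and 2.49%, and 5.78% and 9.3% in the same order. At an unadjusted p under 0.05, edgeR gave 3 members higher in WT/- than in WT/HAQ (APOBEC3C, APOBEC3G and ADAR), where 15.4% of all genes were higher and 13.4% lower. It gave 1 lower in HAQ/- than in WT/HAQ (APOBEC3F), where 10.7% were lower and 8.03% higher, and 3 lower in HAQ/- than in WT/- (APOBEC3C, APOBEC3G and ADAR), where 20% were lower and 16.2% higher. APOBEC3C had a log2 difference of 1.99 ± 0.69 (SE) between WT/- and WT/HAQ with an adjusted p of 0.136, and of -2.30 between HAQ/- and WT/- with an adjusted p of 0.0854. ADAR had 0.33 with an adjusted p of 0.159, and -0.37 with an adjusted p of 0.096. When either HAQ/- library was left out, ADAR and APOBEC3C passed as higher in WT/- than in WT/HAQ, where 10.2% of all tested genes then did in each fit. Their adjusted p was 0.0407 and 0.022 without the HAQ/- control, and 0.0419 and 0.0225 without the HAQ/- library with cGAMP. In HAQ/- against WT/-, ADAR passed as lower without the HAQ/- control (adjusted p 0.0141, with 12.4% of all genes lower) and APOBEC3C without the HAQ/- library with cGAMP (0.0148, with 8.84% lower), each fit then having a lone HAQ/- library that was assumed to vary like the others.

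The 3 nearest protein-coding genes on each side of the APOBEC3 cluster had small folds, with the exception of PDGFB. On the side of APOBEC3A, CBX6 had log2 folds of 0.02, -0.15 and 0.02 in WT/HAQ, WT/- and HAQ/-, NPTXR 0.02, -0.19 and 0.08, and DNAL4 -0.46, -0.33 and -0.14. On the side of APOBEC3H, CBX7 had -0.12, -0.12 and 0.06, and the ribosomal protein gene RPL3 had -0.08, 0.03 and 0.01. PDGFB, which encodes a platelet-derived growth factor chain and lies between CBX7 and RPL3, had -4.07, -2.57 and -0.85. Among the 4 tested APOBEC3 genes the log2 folds ran from -1.40 to 2.66, and neighbouring members could differ in sign.

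**Figure D4:**
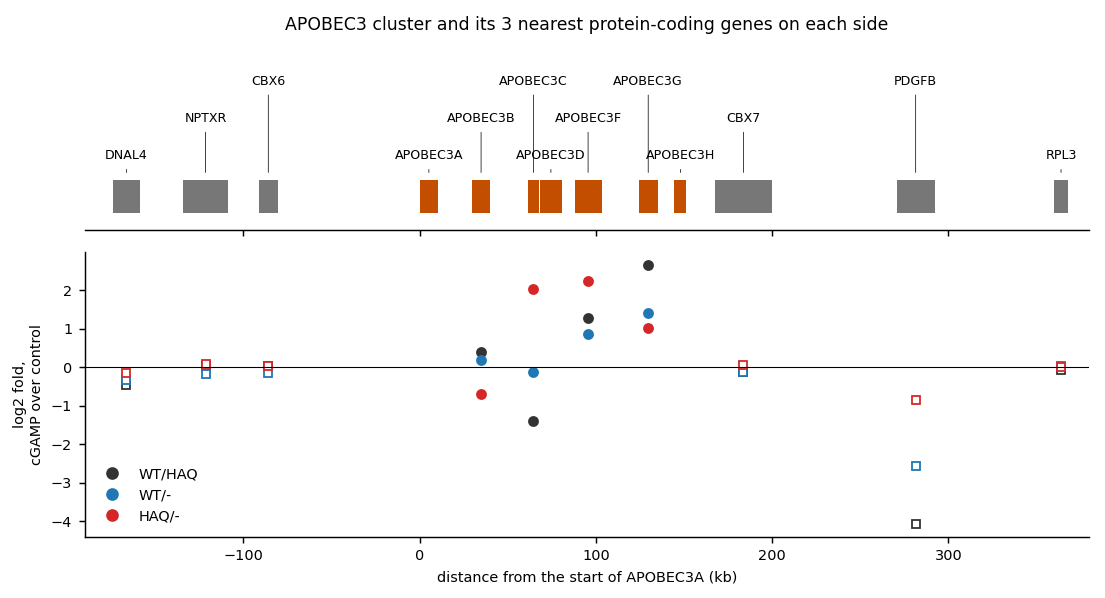
Top, the 7 APOBEC3 genes (orange) and the 3 nearest protein-coding genes on each side (grey), by distance in kb from the start of APOBEC3A. Bottom, their log2 folds, cGAMP over control, in each line (circles, 4 tested APOBEC3 genes; open squares, flanking genes); of the 6 flanking genes only PDGFB left the range from -0.46 to 0.08, reaching -4.07 in WT/HAQ.

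Near ADAR, UBE2Q1 had log2 folds of 0.18, 0.04 and 0.03, PMVK 0.11, 0.12 and 0.05, and PBXIP1 0.16, 0.17 and -0.06. KCNN3, a potassium channel gene with a mean count of 13.2, had 3.22, 2.99 and 0.74, while TDRD10 had 0 counts and CHRNB2 a mean count of 6.33.

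The genes most like each member over the 6 libraries were found by the root mean square difference of centred log2 normalized counts, among 12087 candidates whose mean count was 50 or more. ADAR was closest to EFNA5 (0.056), SLC25A29 (0.0799) and TTC26 (0.0807). APOBEC3B was closest to MXD3 (0.11), CEP76 (0.139) and TRMT61B (0.142), and APOBEC3G to PAK3 (0.173), UBA7 (0.245) and PCDH7 (0.272). APOBEC3F was closest to ENSG00000259529 (0.171), FKBP5 (0.35) and GBP3 (0.428). APOBEC3C had no close partner, IL1R2 being at 0.499, ADAMTS9 at 0.533 and ITGB3 at 0.618. Of these, UBA7 (the activating enzyme for ISG15) and GBP3 (a guanylate-binding protein) are known ISGs.

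ADARB1, which encodes the other catalytically active ADAR, had log2 folds of -0.11, -0.58 and 0.05 in the 3 lines and an adjusted p of 0.395 in edgeR's quasi-likelihood test.

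ADAR was among the weakest responders of the ISG signature, a list of 38 genes used by the study that includes ADAR itself. In edgeR's quasi-likelihood test 35 of the 38 were higher with cGAMP and 0 lower, with the same counts from DESeq2 and 38 and 0 at an unadjusted p under 0.05. Of all tested genes, these rules called 2.27% higher and 0.959% lower with edgeR, 5.1% and 3.85% with DESeq2, and 11.6% and 13.6% at an unadjusted p. The signature had median log2 folds of 3.36 in WT/HAQ cells, 2.91 in WT/- and 2.28 in HAQ/-. OASL, an oligoadenylate synthetase-like protein, had the largest mean of the 3 log2 folds (tested log2 change 7.53 ± 0.47, adjusted p 0.00585) and PSME2, a proteasome activator subunit, the smallest (0.43, adjusted p 0.0762). ADAR ranked 34 from the top in WT/HAQ cells, 35 in WT/- and 36 in HAQ/-. Its log2 fold was still larger than that of 92.7% of tested genes in WT/HAQ cells, 93.1% in WT/- and 93.5% in HAQ/-.

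Genes that sense double-stranded RNA, whose activation ADAR restrains, were higher with cGAMP in 8 of 10 tested and lower in 0 with edgeR, where 2.27% and 0.959% of all genes were. At an unadjusted p under 0.05, as with DESeq2, 9 were higher and 0 lower (11.6% and 13.6% of all unadjusted, 5.1% and 3.85% with DESeq2). Their median log2 folds were 3.88, 3.28 and 2.95 in WT/HAQ, WT/- and HAQ/-. OAS1, an oligoadenylate synthetase, had a log2 change of 5.82 ± 0.42 (SE, adjusted p 0.00714), and MAVS, the adaptor of the RNA sensors, had 0.04 (adjusted p 0.791). Of 11 tested interferon, receptor and signalling genes, 7 were higher and 0 lower with edgeR, and the same with DESeq2. Among them, the interferon gene IFNB1 had a log2 change of 8.16 ± 0.85 (SE, adjusted p 0.0166 with edgeR). Its log2 folds were 8.16, 9.85 and 1.65 in WT/HAQ, WT/- and HAQ/-, so HAQ/- lay far below this average. The receptor-bound kinase JAK1 had -0.03 (adjusted p 0.839).

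Of 7 other retrovirus restriction factors, 6 were higher and 0 lower in the edgeR test (2.27% and 0.959% of all genes), and 7 and 0 at an unadjusted p under 0.05 or with DESeq2, with medians of 1.75, 1.40 and 0.94. MX2, which restricts HIV, had the largest change (7.30 ± 0.17, adjusted p 0.00105) and MOV10, an RNA helicase, the smallest (0.56, adjusted p 0.074). Of the 8 uracil and abasic site repair genes, which process the product of APOBEC3 deamination, 0 passed in either direction with edgeR and 0 with DESeq2. At an unadjusted p under 0.05, edgeR gave 2 higher (APEX1 and MBD4) and 0 lower, where it gave 11.6% and 13.6% of all genes. Their medians were -0.06, 0.03 and 0.06, and they ranged from REV1, a translesion polymerase (-0.23, adjusted p 0.262), to the abasic endonuclease APEX1 (0.30, adjusted p 0.129). Of 10 known regulators of APOBEC3B, 0 were higher and 1 was lower with edgeR (2.27% and 0.959% of all genes), 1 and 3 at an unadjusted p under 0.05 (11.6% and 13.6%), and 1 and 3 with DESeq2 (5.1% and 3.85%). The gene that fell with edgeR was NFKB1, a subunit of NF-kappaB (-0.60 ± 0.10, adjusted p 0.0462), while CDKN1A, a p53 target, had the largest value (0.62, adjusted p 0.0823). The medians of this list were -0.01, -0.11 and -0.01.

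**Figure D5:**
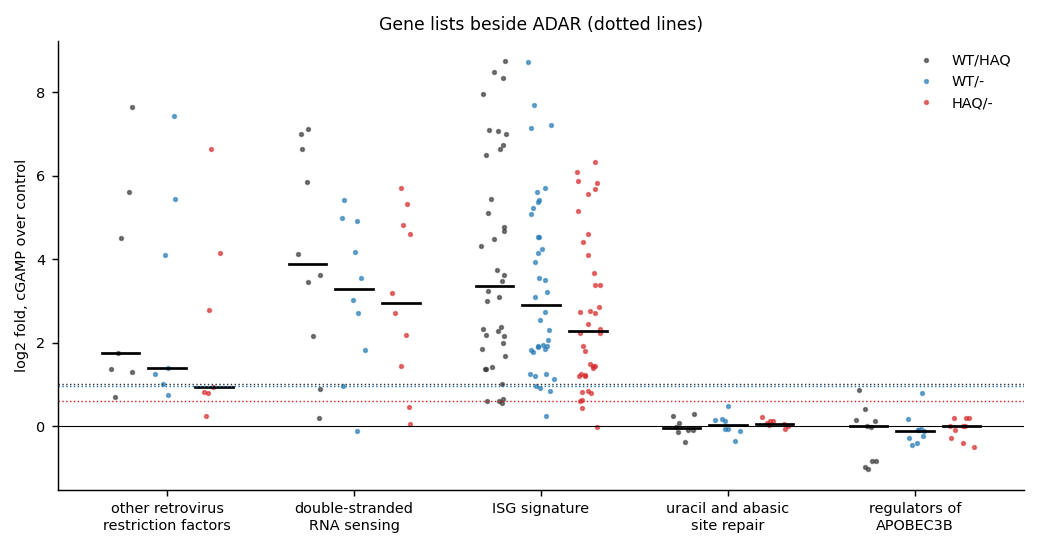
Log2 fold, cGAMP over control, of each tested gene (points) in 5 gene lists, by line, with list medians as bars and ADAR as dotted lines in the colour of each line. ADAR at 0.61 to 1.02 lay below the medians of the double-stranded RNA sensing list and the ISG signature in all 3 lines, and the repair genes and the regulators of APOBEC3B stayed around 0.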

How the data were processed

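RNA-seq of SKOV3 cells was analysed in 6 libraries, 1 per line and treatment, made with an mRNA TruSeq kit from TRIzol RNA. The labels say that cells were harvested directly after treatment, the methods that they first rested. The authors deposited estimated counts per gene (RSEM expected counts), without normalization. Per the submitters' processing notes, STAR and RSEM were used with GRCh38 (hg38), and versions and annotation are not given in the sources used here. RSEM divides reads that match several genes between them, which touches the paralogous APOBEC3 genes. The values were rounded to whole counts, giving totals of 12444822 to 17608467 counts per library.

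TMM factors from edgeR 4.0.16 (R 4.3.3) scaled the libraries, over the 15126 of 60498 genes whose mean count was 10 or more, and normalized counts refer to the geometric mean of all effective sizes. A floor of 3 counts was used for folds, and a gene with at most 3 counts in both libraries got no fold. Intervals are at 95% and cover counting error only, Wilson for ratios and exact Poisson for single libraries. Each treated library was compared with the control of its own line. Quasi-likelihood tests of edgeR used line or treatment as a block, with Benjamini-Hochberg adjustment over all tested genes and a threshold of 0.05, and DESeq2 1.42.0 was an alternative. Scripts were tested on simulated data. Exon lengths and positions came from GENCODE release 44, which had the identifiers of 14995 of the 15126 tested genes, and promoter windows from RefSeq.

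All 8 members are described. Of other lists, the genes with the largest and smallest mean log2 fold over the 3 lines were named, and, for each tested member, the 3 genes most like it and, for each locus, the 3 nearest protein-coding genes on each side. The members, lists and tests were chosen with earlier results of these data known, and the ISG signature is the list of genes that the study used. Alternatives covered scaling, depth, floors, filters, the fold, rounding, the test, the block and left-out libraries. Some genes of the lists are not reported here.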

Additional observations from a re-analysis of the deposited data

Results flagged for a closer look

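APOBEC3C had a log2 fold of 2.03 in HAQ/- and of -1.40 in WT/HAQ, opposite directions under the same contrast in each line's only pair of libraries. The values rest on 4 and 13 counts in HAQ/- and on 17 and 6 counts in WT/HAQ, and the difference of 3.43 on the log2 scale has a counting interval of 1.32 to 5.53. With a floor of 10 counts in place of 3, the log2 folds were 0.71 and -0.66 and the difference 1.37, and over the other scalings, filters, thinning and prior count it was 2.57 to 3.44, with both directions kept. With 1 library per condition the difference was not tested against the spread between cultures.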

How the results depend on the processing

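The precision of the APOBEC3 genes was limited by their low counts, at most 106 in a library, and that of ADAR by the lack of replicate cultures. At a mean count of at least 50, when only APOBEC3B and ADAR were left, 1 gene was past 1.5-fold upwards in each of WT/HAQ, WT/- and HAQ/- (9.94%, 8.65% and 3.57% of all genes), and 0 downwards in WT/HAQ (9.23%). At 2-fold, 1 was upwards in WT/- (6.57%) and 0 downwards in HAQ/- (1.94%). In the treatment test, DESeq2 called 2 genes higher (ADAR and APOBEC3G), the fit with no replicate block, in which the lines no longer pair the libraries, called 0 (ADAR 0.87, adjusted p 0.139) with 0.377% of all genes, and leaving out 1 line at a time gave 0 to 2, the 2 coming without HAQ/-, where 8.77% of all genes were called higher against 2.27% with every line. Without the WT/- libraries, 0 genes of the whole table passed. In the line test, leaving out 1 library gave 0 to 2 genes higher in WT/- than in WT/HAQ and 0 to 1 lower in HAQ/- than in WT/-, while the share of all genes called ran from 0 to 10.2% and from 0 to 12.4%, with 0 without either WT/- library. The difference between the APOBEC3C log2 folds of HAQ/- and WT/HAQ fell from 3.43 to 1.37 with a floor of 10 counts. Scaling by total counts gave untreated ADAR log2 ratios of 0.23 for HAQ/- over WT/HAQ and -0.10 for HAQ/- over WT/-, and a log2 fold of 0.89 for ADAR in WT/-. No called direction was reversed under any alternative that was run, and the causes of these changes were not tested. The largest shift that a scaling gave to the median log2 fold of all genes was -0.0621, in WT/-.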
